A study of Homo sapiens with 12 samples.

Results

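The genes described here encode 10 integrin subunits, 5 alpha subunits (ITGA2, ITGA3, ITGA5, ITGA6 and ITGAV) and 5 beta subunits (ITGB1, ITGB3, ITGB4, ITGB5 and ITGB8). They were chosen by gene symbol from a list of integrins, with earlier results of these data known. All 10 were found among the 58735 genes of the deposited tables, which hold 26 integrin subunit genes in all. All 10 passed the filter on low counts. RNA was sequenced from 2 human cell lines labelled as anaplastic thyroid carcinoma, a thyroid cancer that has lost most features of the gland. One line, KHM-5M, has the labelled genotype BRAF V600E, an activating change in the kinase BRAF, and its medium was RPMI-1640. The other, TTA-1, has the label BRAF WT, and its medium was DMEM. Both media held fetal bovine serum. Cells of each line were exposed in multi-well plates to GDC-0994 (ravoxertinib), an inhibitor of ERK1 and ERK2, the kinases that act downstream of BRAF and MEK, at 1 µM for 24 h, or to the vehicle DMSO. This gave 4 groups of 3 libraries, KHM-5M DMSO, KHM-5M GDC-0994, TTA-1 DMSO and TTA-1 GDC-0994. Each genotype was represented by a single line in its own medium, so genotype, line and medium cannot be told apart. Nothing in the labels says that the 3 libraries of a group came from separate cultures, so p-values measure only the spread between these libraries, which may be technical.

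Integrins are membrane receptors that bind extracellular matrix outside the cell and, through talin, kindlin and other adaptors, the actin cytoskeleton inside it. Each receptor is a pair of 1 alpha and 1 beta subunit, and the pair sets which matrix protein is bound. The ITGB1 protein pairs with all 5 of the alpha subunits described here, ITGA2 giving a collagen receptor, ITGA3 and ITGA6 laminin receptors, and ITGA5 the classical fibronectin receptor. Among the subunits described here, the ITGAV protein pairs with the ITGB1, ITGB3, ITGB5 or ITGB8 protein into receptors of vitronectin, fibronectin or latent TGF-beta. The ITGB4 protein pairs with the ITGA6 protein alone, and that receptor anchors epithelial cells to laminin-332 in hemidesmosomes.

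Promoter sequence is shown for 4 of the genes, chosen after their values were seen. ITGB5 and ITGA6 were called lower in both lines, ITGA2 was called lower in TTA-1, and ITGAV was called higher in KHM-5M. The windows are from RefSeq on build GRCh38.p14 and hold the 250 bases before an annotated transcription start. Printed of each is the longest stretch without bases of annotated exons, 5′ to 3′ on the strand of the gene. The motif search ran over all 250 bases, exon bases included. Capitals mark matches on either strand to 5 motifs searched, AP-1 (TGANTCA), CRE (TGACGTCA), ETS (CCGGAAG), TEAD (GGAATG) and SP1 (GGGCGG). None of these letter strings holds another.
ITGB5, chr3:124901419-124901668, minus strand: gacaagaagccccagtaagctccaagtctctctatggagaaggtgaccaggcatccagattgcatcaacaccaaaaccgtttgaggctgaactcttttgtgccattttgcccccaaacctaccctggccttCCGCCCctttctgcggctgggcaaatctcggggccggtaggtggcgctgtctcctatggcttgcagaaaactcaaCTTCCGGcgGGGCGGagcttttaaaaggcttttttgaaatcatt
ITGA6, chr2:172427086-172427335, plus strand: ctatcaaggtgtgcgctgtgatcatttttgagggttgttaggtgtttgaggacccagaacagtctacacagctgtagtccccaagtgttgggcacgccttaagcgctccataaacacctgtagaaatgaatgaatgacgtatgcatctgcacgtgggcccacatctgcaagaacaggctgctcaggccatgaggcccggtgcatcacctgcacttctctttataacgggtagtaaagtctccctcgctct
ITGA2, chr5:52989102-52989325, plus strand: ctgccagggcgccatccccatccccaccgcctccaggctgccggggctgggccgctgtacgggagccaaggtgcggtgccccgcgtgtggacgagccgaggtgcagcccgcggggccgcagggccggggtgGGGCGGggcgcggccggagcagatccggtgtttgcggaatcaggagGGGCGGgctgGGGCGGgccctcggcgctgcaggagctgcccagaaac
ITGAV, chr2:186589806-186590055, plus strand: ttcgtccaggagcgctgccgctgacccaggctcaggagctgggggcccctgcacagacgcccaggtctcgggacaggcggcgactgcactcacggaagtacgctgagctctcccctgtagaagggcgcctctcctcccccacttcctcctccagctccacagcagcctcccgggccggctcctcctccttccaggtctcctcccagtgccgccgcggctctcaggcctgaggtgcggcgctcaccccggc
The table matched 7 of the 10 genes, with 12 windows. ITGA3, ITGB3 and ITGB4 were not matched. The ETS letters were found in 2 of the 12 windows, one of ITGB5, with a match 44 bases before the start, and the ITGA6 window that is not printed, with a match 159 bases before the start and outside the longest exon-free stretch. These letters were present in 8.517% of 35116 RefSeq promoter windows of the same length. The AP-1 and CRE letters were in none of the 12 windows, against 6.573% and 1.646% of all windows. The SP1 letters were in 7 of the 12 windows, from 6 genes (all but ITGAV), against 42.64% of all windows. The TEAD letters were in 2 of the 12 windows, against 11.89%. These were 1 of ITGB1 and that of ITGA5, where the match lay 82 bases before the start, outside the longest exon-free stretch. A match is a description of these letters and does not show binding.

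Total counts were 14952970 to 18389915 per library. Of 10 known ERK output genes, 9 fell and 1 rose in KHM-5M under GDC-0994 (median log2 change -2.80), and 8 fell in TTA-1 (median -0.89). These are changes at an edgeR adjusted p below 0.05. By that threshold 25.1% of all genes tested fell and 24.6% rose in KHM-5M, and 2.24% fell in TTA-1. The thyroid markers TG (thyroglobulin) and SLC5A5 (the iodide transporter) had no count in KHM-5M and stayed under 1 CPM (a count scaled to library size after TMM normalization) in TTA-1. The thyroid transcription factor PAX8 was at 210 ± 8.7 CPM (SD, n = 3) in KHM-5M DMSO and 3.59 ± 0.55 CPM in TTA-1 DMSO. Blood and platelet markers summed to at most 2.77 CPM and endothelial markers to at most 3.98 CPM in any library. In bulk RNA, fewer cells of a type and less RNA per cell cannot be told apart.

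Levels are given as FPKM, fragments per kilobase of exon length and per library size, which allows levels of different genes to be compared. ITGB1 had the highest level of the 10 genes in all 4 groups, at 111 ± 2.0 FPKM (SD, n = 3 here and below) in KHM-5M DMSO and 107 ± 8.7 in TTA-1 DMSO. Only 1.50% of protein-coding genes had a higher mean in KHM-5M DMSO. The gene next to it differed between the lines. In KHM-5M DMSO it was ITGA3, at 72.2 ± 1.0 FPKM, followed by ITGB5 at 30.6 ± 0.97 and ITGA6 at 28.6 ± 1.9, whose libraries overlapped, then ITGA5 at 17.2 ± 0.73 and ITGAV at 14.3 ± 0.79. In TTA-1 DMSO it was ITGAV, at 52.9 ± 8.7 FPKM, followed by ITGB5 at 30.5 ± 0.71, ITGA3 at 25.4 ± 3.0, ITGA6 at 17.9 ± 2.0, ITGA5 at 11.2 ± 1.0 and ITGA2 at 7.72 ± 1.3, with no overlap between neighbours in this order. The other beta subunits were low in DMSO, with ITGB8 at 2.20 ± 0.084 FPKM, ITGB3 at 1.42 ± 0.23 and ITGB4 at 0.506 ± 0.083 in KHM-5M, and ITGB4 at 0.553 ± 0.15, ITGB3 at 0.186 ± 0.0050 and ITGB8 at 0.117 ± 0.032 in TTA-1. Under GDC-0994, ITGAV came after ITGA3 in KHM-5M, at 22.1 ± 3.0 FPKM, and its libraries overlapped those of ITGB5 (19.7 ± 1.2). ITGA6 and ITGA3 overlapped in TTA-1, at 12.7 ± 0.54 and 12.1 ± 0.31 FPKM. The per-library plot of levels shows these orders for all 12 libraries.

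**Figure D1:**
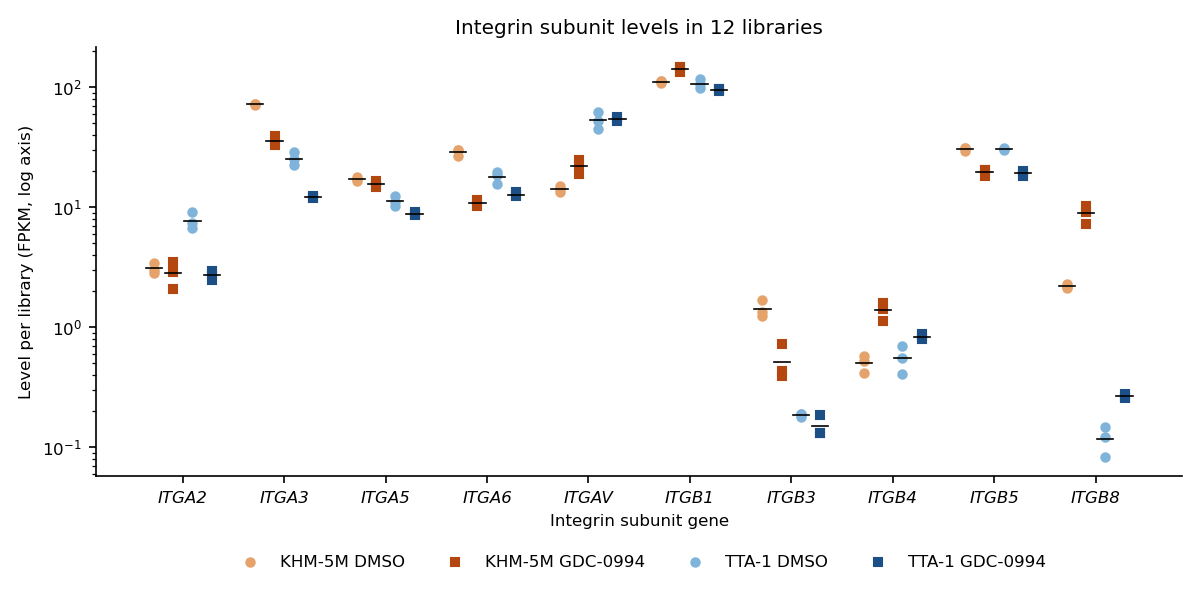
Level of each integrin subunit gene in FPKM on a log axis; each point is 1 library, circles are DMSO and squares GDC-0994, and short lines are means of 3 libraries. ITGB1 sits highest in every group, ITGB8 and ITGB3 are far lower in TTA-1 than in KHM-5M, and ITGA3 and ITGB5 step down under GDC-0994 in both lines.

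The next question was which subunits changed when ERK was inhibited. Fold changes are from edgeR's quasi-likelihood test on the counts, with a gene called at a Benjamini-Hochberg adjusted p below 0.05 over the 16218 genes tested. In KHM-5M, 8 of the 10 genes were called, 4 higher and 4 lower. In this comparison 49.8% of all genes tested were called, 24.6% higher and 25.1% lower. In TTA-1, 6 of the 10 were called, 1 higher and 5 lower, where 3.43% of all genes tested were called, 1.18% higher and 2.24% lower. The 10 genes were chosen with earlier results of these data known, so these counts do not stand for integrins as a family. Of the 8 other integrin subunit genes tested, 5 were called in KHM-5M and 0 in TTA-1. The median log2 change of the 10 genes was -0.17 in KHM-5M and -0.33 in TTA-1, against 0.017 and 0.0057 over all genes tested. The 3 genes called lower in both lines were ITGA3, ITGA6 and ITGB5, and ITGB8 was called higher in both. None was called in opposite directions. The CPM of treated and control libraries did not overlap for 9 of the 10 genes in KHM-5M (61.0% of all genes tested) and for 8 in TTA-1 (18.8%). For ITGA5 in KHM-5M the gap was narrow, at 124 CPM in treated and 126 CPM in DMSO replicate 1. In FPKM its libraries overlapped there. Without TTA-1 DMSO replicate 2, 15.7% of all genes tested were called in TTA-1, and the count of integrin genes stayed at 6. Without any other single library of that line, 1.55% to 2.65% of all genes and 5 of the 10 were called.

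**Figure D2:**
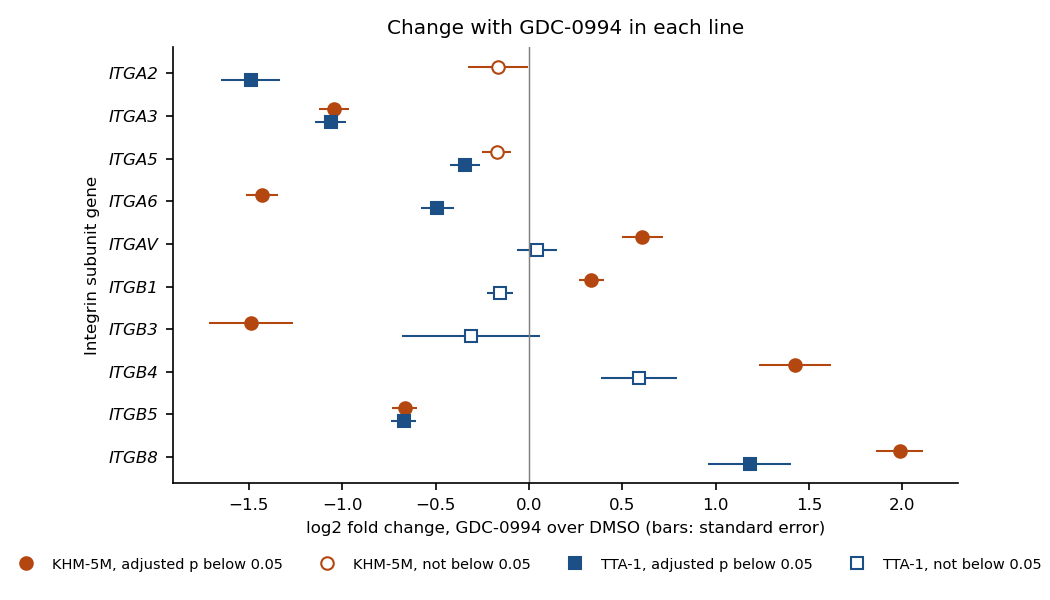
Log2 fold change of each integrin subunit gene, GDC-0994 over DMSO, in KHM-5M (circles) and TTA-1 (squares), with standard errors; filled symbols have an adjusted p below 0.05. ITGA3 and ITGB5 lie at nearly the same value in both lines, whereas ITGA2, ITGA6, ITGAV, ITGB1, ITGB3, ITGB4 and ITGB8 are apart. The difference between the lines was not called for ITGB3.

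Among the alpha subunits, ITGA3 (ENSG00000005884, chr17:50055968-50090481, plus strand, GRCh38) was read at 71.1, 72.6 and 72.9 FPKM in KHM-5M DMSO replicates 1, 2 and 3, an order kept for all triplets below. Under GDC-0994 the values were 38.9, 35.2 and 33.0. In TTA-1 they went from 28.5, 22.5 and 25.2 FPKM in DMSO to 12.5, 12.1 and 11.8 under GDC-0994. Every treated library was below every control library of its line. The fall was 2.06-fold in KHM-5M (log2 -1.04 ± 0.082 SE, edgeR with Benjamini-Hochberg adjusted p = 1.56e-08) and 2.09-fold in TTA-1 (-1.06 ± 0.083, edgeR adjusted p = 8.64e-07). The difference between these effects was 0.017 ± 0.12 on the log2 scale (edgeR adjusted p = 0.958).

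ITGA6 (ENSG00000091409, chr2:172427354-172506282, plus strand), the partner of ITGB4 as well as ITGB1, fell more in KHM-5M. It went from 29.7, 29.7 and 26.5 FPKM to 10.2, 10.9 and 11.4 there. In TTA-1 it went from 15.7, 19.6 and 18.5 to 12.5, 12.3 and 13.4. Treated and control libraries did not overlap in either line. The log2 change was -1.43 ± 0.087 in KHM-5M (edgeR adjusted p = 6.95e-10) and -0.49 ± 0.087 in TTA-1 (edgeR adjusted p = 0.00363). The difference, -0.94 ± 0.12, was itself called (edgeR adjusted p = 1.66e-05).

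ITGA2 (ENSG00000164171, chr5:52989326-53094779, plus strand), the alpha subunit of a collagen receptor, was called in TTA-1 alone. It fell there from 6.66, 9.11 and 7.38 FPKM to 2.95, 2.79 and 2.46, which is 2.81-fold (log2 -1.49 ± 0.16, edgeR adjusted p = 2.88e-05). In KHM-5M the DMSO libraries were at 2.99, 3.44 and 2.84 FPKM and the treated ones at 2.07, 2.88 and 3.46. These libraries overlapped, and the log2 change was -0.17 ± 0.16 (edgeR adjusted p = 0.414). The lines differed in this effect by 1.32 ± 0.23 (edgeR adjusted p = 0.000277). All 3 treated TTA-1 libraries lay within the range of the treated KHM-5M libraries.

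ITGAV (ENSG00000138448, chr2:186590065-186680901, plus strand), the shared alpha chain of the vitronectin and TGF-beta-binding receptors, rose in KHM-5M from 14.2, 15.1 and 13.5 FPKM to 18.9, 22.5 and 24.9. The rise was 1.52-fold without overlap (log2 0.61 ± 0.11, edgeR adjusted p = 0.000229). In TTA-1 the DMSO libraries ranged widely, at 44.5, 61.7 and 52.4 FPKM, and held the treated values of 54.7, 52.1 and 55.9 within their range. The log2 change in TTA-1 was 0.042 ± 0.11 (edgeR adjusted p = 0.897). The effects differed by 0.57 ± 0.15 (edgeR adjusted p = 0.0112), a call that limma on log2(FPKM + 1) without a filter did not make (adjusted p = 0.0588).

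ITGA5 (ENSG00000161638, chr12:54395261-54419460, minus strand), of the fibronectin receptor, had the smallest change of the alpha subunits called in TTA-1. It went from 12.3, 10.2 and 11.1 FPKM to 8.54, 9.14 and 8.74 in TTA-1, with no overlap (log2 -0.34 ± 0.080, edgeR adjusted p = 0.0245). In KHM-5M it went from 16.5, 17.1 and 17.9 to 16.6, 15.2 and 14.8, and the change of -0.17 ± 0.078 was not called (edgeR adjusted p = 0.0788), though it was without KHM-5M GDC-0994 replicate 1 (0.0476) and in a model of the KHM-5M libraries alone (0.0122). Between the lines the effects differed by 0.17 ± 0.11 (edgeR adjusted p = 0.296, and 0.0400 without TTA-1 DMSO replicate 2). The call in TTA-1 was lost without TTA-1 DMSO replicate 1 (edgeR adjusted p = 0.0927), without DMSO replicate 3 (0.0861) and without GDC-0994 replicate 1 (0.0854), 2 (0.0642) or 3 (0.112). It was also lost with the replicate number as a block (0.0639), in a model of the TTA-1 libraries alone (0.114) and by limma on log2(FPKM + 1) without a filter (0.0605).

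Among the beta subunits, ITGB8 (ENSG00000105855, chr7:20330702-20415754, plus strand), which pairs with ITGAV to bind latent TGF-beta, had the largest rise. In KHM-5M it went from 2.18, 2.29 and 2.13 FPKM to 7.17, 9.18 and 10.2, a 3.96-fold rise (log2 1.99 ± 0.12, edgeR adjusted p = 8.81e-10). In TTA-1 it went from 0.0836, 0.148 and 0.121 FPKM to 0.276, 0.264 and 0.258. All treated libraries were above all controls in both lines, but the TTA-1 values rest on 20, 35 and 30 counts in DMSO and 65, 62 and 58 under GDC-0994. The log2 change in TTA-1 was 1.18 ± 0.22 (edgeR adjusted p = 0.00563). On log2(FPKM + 1), which compresses such low levels, it was 0.18 and was not called by limma (adjusted p = 0.637 without a filter and 0.369 with one). The difference of the effects was 0.80 ± 0.26 (edgeR adjusted p = 0.0305), and was not called without KHM-5M GDC-0994 replicate 2 (0.0530) or TTA-1 DMSO replicate 2 (0.112) or 3 (0.0627).

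ITGB4 (ENSG00000132470, chr17:75721328-75757818, plus strand), the hemidesmosome beta chain, rose in KHM-5M while its only alpha partner ITGA6 fell. It went from 0.580, 0.522 and 0.416 FPKM to 1.60, 1.43 and 1.12, which is 2.69-fold without overlap (log2 1.43 ± 0.19, edgeR adjusted p = 1.08e-05). The counts behind these values were 50 to 70 per library in DMSO and 124 to 203 under GDC-0994. In TTA-1 the values were 0.703, 0.408 and 0.549 FPKM in DMSO and 0.828, 0.801 and 0.869 under GDC-0994. The treated TTA-1 libraries were above the controls, but the change of 0.59 ± 0.20 was not called (edgeR adjusted p = 0.134). The difference of the effects was 0.83 ± 0.28 (edgeR adjusted p = 0.0353). That call was lost in 8 of the 12 fits that left out 1 library, with edgeR adjusted p between 0.0548 and 0.0860, and the 8 were those without KHM-5M DMSO replicate 2 or 3, KHM-5M GDC-0994 replicate 1 or 2, TTA-1 DMSO replicate 1 or 3, or TTA-1 GDC-0994 replicate 1 or 2. It was also lost with length and GC trends removed (log2 0.61, edgeR adjusted p = 0.0532), and by limma on log2(FPKM + 1) without a filter (adjusted p = 0.0819) and on log2(FPKM + 0.1) (0.0596).

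ITGB3 (ENSG00000259207, chr17:47253846-47311816, plus strand), the beta chain of the classical vitronectin receptor, moved the other way from ITGB8 and ITGB4 in KHM-5M. It went from 1.25, 1.33 and 1.69 FPKM to 0.717, 0.432 and 0.389, a 2.81-fold fall without overlap (log2 -1.49 ± 0.23, edgeR adjusted p = 3.59e-05). TTA-1 had 13 counts in each DMSO library and 9, 9 and 12 under GDC-0994, and the log2 change of -0.31 ± 0.37 was not called (edgeR adjusted p = 0.719). The effect in KHM-5M minus that in TTA-1 was -1.18 ± 0.44 (edgeR adjusted p = 0.0571), and it was called without KHM-5M GDC-0994 replicate 1 (edgeR adjusted p = 0.0116) and with length and GC trends removed (0.0424). It was called as well by limma on log2(FPKM + 1) without a filter (adjusted p = 0.00933) and with one (0.00387), and on log2(FPKM + 0.1) (0.0176). Of its exon bases, 51.6% are also annotated to a neighbouring gene on the same strand, AC068234.1, which had 0 counts in every library. How reads on shared exons were assigned is not given in the sources used here, so the level of ITGB3 may be understated.

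ITGB5 (ENSG00000082781, chr3:124761948-124901418, minus strand), the main partner of ITGAV by level after ITGB1, fell in both lines. It went from 31.1, 31.2 and 29.5 FPKM to 20.5, 20.2 and 18.3 in KHM-5M. In TTA-1 it went from 31.3, 30.4 and 29.8 to 18.1, 19.1 and 20.1. Treated libraries were below all controls in both lines. The fall was 1.59-fold in both, at log2 -0.67 ± 0.066 in KHM-5M (edgeR adjusted p = 3.17e-07) and -0.67 ± 0.067 in TTA-1 (edgeR adjusted p = 1.52e-05). The effects differed by 0.0049 ± 0.094 (edgeR adjusted p = 1.00).

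ITGB1 (ENSG00000150093, chr10:32900319-33005792, minus strand), the most widely shared beta chain, rose slightly in KHM-5M from 113, 112 and 109 FPKM to 134, 146 and 148 (log2 0.33 ± 0.068, edgeR adjusted p = 0.000600). In TTA-1 it went from 98.5, 116 and 106 to 96.8, 93.2 and 96.5. The TTA-1 libraries did not overlap, with the treated ones lower, but the change of -0.16 ± 0.068 was not called (edgeR adjusted p = 0.247). The difference of the effects was 0.49 ± 0.096 (edgeR adjusted p = 0.000957). Across the 10 genes the difference of the effects was called for 6, against 27.9% of all genes tested (12.3% higher and 15.6% lower). It was higher in KHM-5M for ITGA2, ITGAV, ITGB1, ITGB4 and ITGB8 and lower for ITGA6.

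Because subunits act in pairs, the levels were also expressed as shares and ratios of FPKM, as descriptions of the RNA with no test, since with 3 libraries a side an exact permutation test could not go below p = 0.1. Shares were taken of the summed FPKM of ITGB3, ITGB5 and ITGB8, the partners of ITGAV among the 10 genes other than ITGB1. ITGB8 held 6.32, 6.58 and 6.39% in KHM-5M DMSO and 25.3, 30.8 and 35.5% under GDC-0994. ITGB5 held 89.4 ± 0.78% and then 67.7 ± 4.5%. In TTA-1, ITGB5 held 99.0 ± 0.12% in DMSO and 97.9 ± 0.093% under GDC-0994, and ITGB8 went from 0.382 ± 0.11% to 1.37 ± 0.12%. Libraries of the 2 treatments did not overlap in any of these shares. By counts, with no division by length, the ITGB8 share in KHM-5M was 14.1% and then 50.8%, because ITGB8 has the longest exon sequence of the 10 genes.

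Among the 5 alpha subunits, ITGA3 held 53.3 ± 1.1% of the summed FPKM in KHM-5M DMSO and 41.0 ± 3.6% under GDC-0994, and ITGAV went from 10.5 ± 0.42% to 25.4 ± 3.3%. In TTA-1, ITGAV went from 45.7 ± 4.4% to 59.8 ± 0.87% while ITGA3 went from 22.3 ± 4.1% to 13.4 ± 0.50%. So ITGAV had the larger share under GDC-0994 in both lines, although its own level was called higher in KHM-5M alone. The summed FPKM of the 5 alpha genes over that of ITGB1 was 1.22 ± 0.023 in KHM-5M DMSO and 0.611 ± 0.032 under GDC-0994, and 1.08 ± 0.014 and 0.950 ± 0.0071 in TTA-1. ITGA6 exceeded ITGB4 in every library. The ratio was 57.3 ± 6.2 and then 8.06 ± 1.9 in KHM-5M, and 34.7 ± 13 and then 15.3 ± 0.15 in TTA-1.

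**Figure D3:**
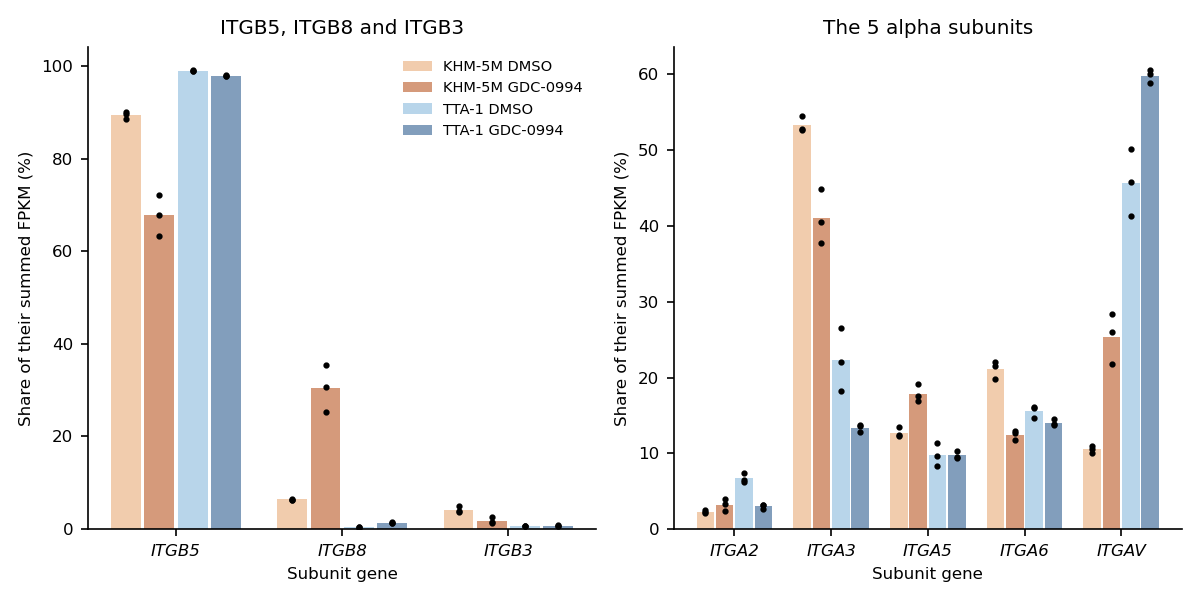
Share of each gene in the summed FPKM of ITGB5, ITGB8 and ITGB3 (left) and of the 5 alpha subunits (right), in percent; bars are means of 3 libraries and dots are single libraries. The ITGB8 share stands at 30.5% in KHM-5M under GDC-0994 and at 6.43% or less in the other 3 groups, and the ITGAV share is higher under GDC-0994 than in DMSO in both lines.

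The lines were then compared in DMSO. There 7 of the 10 genes were called, 5 higher and 2 lower in KHM-5M. In this comparison 76.5% of all genes tested were called, 39.6% higher and 36.8% lower. ITGB8 was 18.4-fold higher in KHM-5M (log2 4.20 ± 0.18, edgeR adjusted p = 1.25e-12) and ITGB3 7.49-fold higher (2.90 ± 0.27, edgeR adjusted p = 3.16e-08). ITGA3 (1.48 ± 0.083), ITGA6 (0.65 ± 0.085) and ITGA5 (0.59 ± 0.079) were also higher in KHM-5M. ITGAV was 3.77-fold lower in KHM-5M (-1.91 ± 0.11, edgeR adjusted p = 1.02e-10) and ITGA2 2.54-fold lower (-1.34 ± 0.16, edgeR adjusted p = 6.40e-07). The libraries of the lines did not overlap for these 7 genes (77.8% of all genes tested). ITGB1, ITGB4 and ITGB5 overlapped between the lines, at log2 differences of 0.036 ± 0.068, -0.15 ± 0.21 and -0.020 ± 0.066.

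Under GDC-0994, 8 of the 10 were called between the lines, 6 higher in KHM-5M and 2 lower, against 80.1% of all genes tested (41.0% higher and 39.1% lower). The libraries of the lines did not overlap for 8 genes (82.0% of all genes tested). ITGB8 was then 32.1-fold higher in KHM-5M (log2 5.00 ± 0.16, edgeR adjusted p = 2.25e-14). ITGB4 (0.68 ± 0.18, edgeR adjusted p = 0.00289) and ITGB1 (0.53 ± 0.068, edgeR adjusted p = 1.89e-06), which were not called in DMSO, were called higher in KHM-5M. ITGA6, higher in KHM-5M in DMSO, was called lower there under GDC-0994 (-0.29 ± 0.087, edgeR adjusted p = 0.00635). ITGA2, lower in KHM-5M in DMSO, stood at -0.020 ± 0.16 (edgeR adjusted p = 0.912). ITGA3 (1.50 ± 0.084), ITGA5 (0.76 ± 0.080) and ITGB3 (1.73 ± 0.31) were higher in KHM-5M and ITGAV lower (-1.35 ± 0.11), and ITGB5 stood at -0.015 ± 0.067. The ITGA6 call was lost without TTA-1 GDC-0994 replicate 3 (edgeR adjusted p = 0.0694), with no filter (0.0872) and by limma on log2(FPKM + 1) without a filter (0.0505). It was also lost under library totals (0.129) or upper quartile scaling (0.172), which shift the median of all genes in this comparison by 0.13 and 0.16 on the log2 scale.

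Differences between lines and between treatments moved with the base composition of the transcripts over all genes. The treatment change in TTA-1 went with GC content at Pearson r = -0.18 over 16211 genes, with a median log2 change of 0.064 for genes under 50% GC and -0.085 for the others. In KHM-5M r was -0.048, with medians of 0.079 and -0.052. The line difference in DMSO, KHM-5M over TTA-1, had r = 0.14, with medians of -0.24 and 0.43. These correlations describe genes, which are not independent. When the trend of each library with GC content and length was removed, an alternative chosen after seeing the data, the DMSO difference of ITGA3 became 0.82, that of ITGA5 0.21, that of ITGA6 0.99 and that of ITGA2 -0.87. ITGB1 (0.54), ITGB4 (-0.82) and ITGB5 (-0.38) were then called. Under GDC-0994, ITGA2 turned to 0.45 and was called (edgeR adjusted p = 0.00146). ITGA6 turned to 0.082 (edgeR adjusted p = 0.194) and ITGB4 to -0.21 (0.231), and both lost their calls. ITGB5 was called there as well, at -0.38 (edgeR adjusted p = 2.89e-06). This fit also takes out any line difference that goes with GC content or length for another reason, and the part of base composition in the line differences was not tested.

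Base composition also went with the spread of the 10 genes within the KHM-5M GDC-0994 and TTA-1 DMSO groups. ITGA2, ITGA6, ITGAV, ITGB1 and ITGB8 have a GC content of 37.8 to 42.9% in their longest transcript, and ITGA3, ITGA5, ITGB3, ITGB4 and ITGB5 one of 52.3 to 63.7%. In KHM-5M GDC-0994 replicate 1, all 5 genes under 50% GC had their lowest CPM of the group and all 5 others their highest. Replicate 3 of that group showed the reverse for all 10. In TTA-1 DMSO replicate 1, all 5 genes under 50% were lowest and 4 of the 5 others highest, and in replicate 2 all 5 genes under 50% were highest. Over 9527 genes, the deviation of these libraries from their group mean went with GC content at Pearson r = 0.60 and -0.56 (KHM-5M GDC-0994 replicates 1 and 3) and 0.74 and -0.70 (TTA-1 DMSO replicates 1 and 2), as a description across genes, which are not independent. The division at 50% was chosen after seeing the values. With the trend removed, every treatment call of the 10 genes was kept in both lines, and ITGA2 (-0.28) and ITGA5 (-0.16) in KHM-5M and ITGB1 (-0.26) and ITGB4 (0.79) in TTA-1 were called as well. Of the differences of the effects, that of ITGB4 was then no longer called and that of ITGB3 was.

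**Figure D4:**
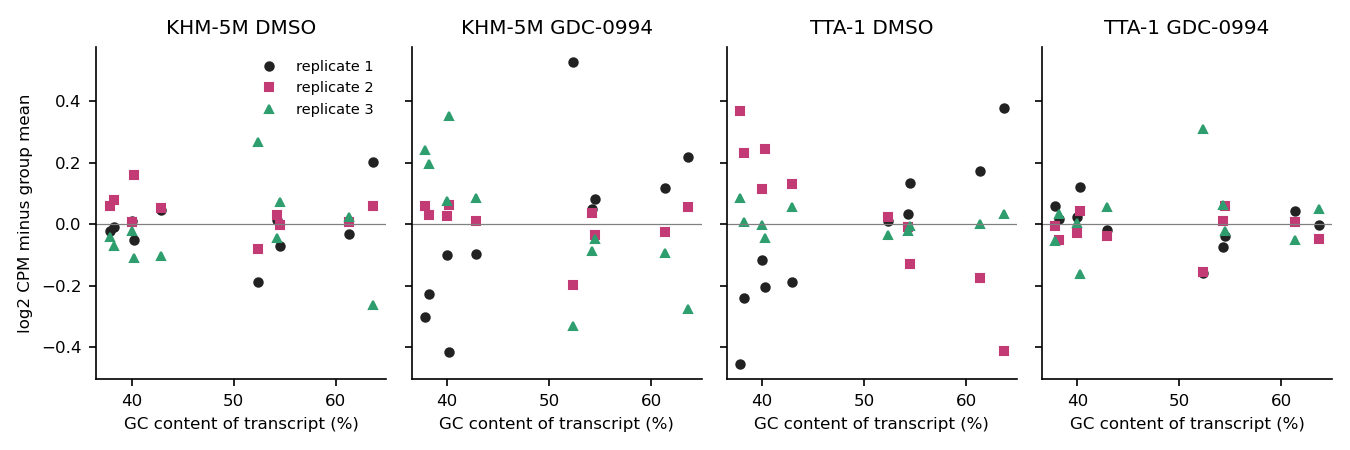
Deviation of each of the 10 integrin genes from its group mean, in log2 CPM, against the GC content of its longest transcript, in percent, with 1 panel per group and 1 symbol per replicate. In KHM-5M GDC-0994 and TTA-1 DMSO the replicates fan out in opposite directions on the 2 sides of 50% GC.

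The wider adhesion machinery was described from lists of genes. The counts of each list stand against the 49.8% of all genes tested that were called in KHM-5M and the 3.43% in TTA-1. In KHM-5M the counts for cytoplasmic adhesion proteins, regulators of integrin activation and traffic, and membrane partners lay near that share. So did those for hemidesmosome and laminin-332 genes and for other integrin subunits. None of these counts is a result about its list. Laminin-332 is a matrix ligand of the ITGA3 and ITGA6 receptors, and LAMB3 encodes its beta chain. In the list of 7 hemidesmosome and laminin-332 genes, 4 fell and none rose in KHM-5M (median log2 change -0.58). Of all genes tested in that line, 25.1% were called lower and 24.6% higher. LAMB3 fell there from 423 ± 5.5 to 67.9 ± 2.6 CPM (-2.64 ± 0.071, edgeR adjusted p = 7.46e-14), and COL17A1, a transmembrane collagen of hemidesmosomes, from 5.08 ± 0.63 to 0.203 ± 0.077 CPM (-4.57 ± 0.35, edgeR adjusted p = 1.40e-08). In TTA-1, 3 of the 7 fell and none rose (median -0.32), among them LAMB3 (-0.78 ± 0.067). Of the 4 not called in TTA-1, 2 are named after their values were seen. DST, a linker to intermediate filaments, stood at 0.46 ± 0.13 and CD151, a tetraspanin partner of laminin-binding integrins, at -0.32 ± 0.092. The number called in TTA-1 was 6 without TTA-1 DMSO replicate 2 (1 higher and 5 lower), where 15.7% of all genes tested were called. It was 6 by DESeq2, which called 5.64% of all genes tested. ITGA6 fell in the same libraries, while ITGB4, which encodes the other chain of that receptor, was higher in KHM-5M.

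Of 24 genes of other matrix ligands, 23 were tested, and 13 rose and 6 fell in KHM-5M (median 0.50). Among all genes tested in that line, 24.6% were called higher and 25.1% lower. The count of falls lay near that share. EDIL3, a secreted ligand of ITGAV receptors, rose (2.49 ± 0.15) and so did COL1A1, a collagen chain (1.37 ± 0.085), while TNC (tenascin C, -2.34 ± 0.095) and CTGF (-1.37 ± 0.084) fell. In TTA-1, 3 rose, among them SPP1 (osteopontin, 0.91 ± 0.18) and EDIL3 (0.64 ± 0.14). Another 3 fell, among them CTGF (-0.59 ± 0.088) and CYR61 (-0.47 ± 0.075). Among all genes tested in TTA-1, 1.18% were called higher and 2.24% lower. The number called was 3 instead of 6 without TTA-1 GDC-0994 replicate 3, where 1.55% of all genes tested were called. FN1, the fibronectin bound by the ITGA5 receptor, was at 3904 ± 189 CPM in KHM-5M DMSO and at 1.73 ± 0.28 CPM in TTA-1 DMSO. It was named after its values were seen, and rose in KHM-5M under GDC-0994, by 0.50 ± 0.079 on the log2 scale (edgeR adjusted p = 6.47e-05), where ITGA5 itself was not called.

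Of 13 membrane partners, 2 rose and 4 fell in KHM-5M (median -0.025), and 1 rose and 3 fell in TTA-1 (median -0.072). The shares of all genes tested that were called were 49.8% in KHM-5M and 3.43% in TTA-1. PLAUR, the urokinase receptor, fell in both (-1.20 ± 0.075 and -0.58 ± 0.086). SDC1 (syndecan 1, -1.46 ± 0.092) fell and SDC4 (syndecan 4, 0.55 ± 0.068) and CAV1 (caveolin 1, 0.17 ± 0.069) rose in KHM-5M, and CD82, a tetraspanin, fell (-1.44 ± 0.34) and NRP1, a co-receptor, rose (0.57 ± 0.082) in TTA-1. Of 31 cytoplasmic adhesion proteins, 30 were tested. In KHM-5M 8 rose and 7 fell (median 0.038), near the 49.8% of all genes tested called there. TNS3 (tensin 3, 1.06 ± 0.066) and LIMS2 (2.40 ± 0.21) led those that rose and GIT1 (-0.64 ± 0.084) and FERMT1 (a kindlin, -0.72 ± 0.12) those that fell. In TTA-1 TNS3 rose (0.44 ± 0.065), BCAR1 (-0.62 ± 0.12) and PXN (paxillin, -0.32 ± 0.071) fell, and 27 were not called (median 0.039). Without TTA-1 DMSO replicate 2, 12 of these 30 were called in TTA-1 instead of 3, where 15.7% of all genes tested were called. Without GDC-0994 replicate 2 of that line 1 was called, where 1.87% of all genes tested were. Of the membrane partners, 2 instead of 4 were called in TTA-1 without DMSO replicate 1 or 3 or GDC-0994 replicate 3. In those fits 2.09%, 1.86% and 1.55% of all genes tested were called.

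Of 18 regulators of integrin activation and traffic, 14 were tested. Their counts stand against the 49.8% of all genes tested called in KHM-5M and the 3.43% in TTA-1. In KHM-5M 4 rose and 4 fell (median 0.061), among them RAB11FIP1 (1.71 ± 0.098) and SNX17 (0.28 ± 0.075), which take part in integrin recycling, and CCM2 (-0.66 ± 0.10) and ITGB1BP1 (-0.52 ± 0.091). In TTA-1 edgeR called 0 of the 14 (median -0.048), with 3 at an unadjusted p below 0.05, and DESeq2 called 0. Without TTA-1 DMSO replicate 2, edgeR called 3, and 15.7% of all genes tested. Of the other 16 integrin subunit genes, 8 passed the filter. In KHM-5M, ITGA1 (0.48 ± 0.15) and ITGA4 (0.40 ± 0.13) rose, and ITGA11 (-1.89 ± 0.43) and ITGB2 (-0.97 ± 0.28) fell, as did ITGAE (-0.37 ± 0.11), named after its values were seen. Without KHM-5M GDC-0994 replicate 2, edgeR called 2 of the 8 in KHM-5M, and 42.3% of all genes tested. In TTA-1 edgeR called 0 of the 8, with 2 at an unadjusted p below 0.05, and DESeq2 called 0.

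**Figure D5:**
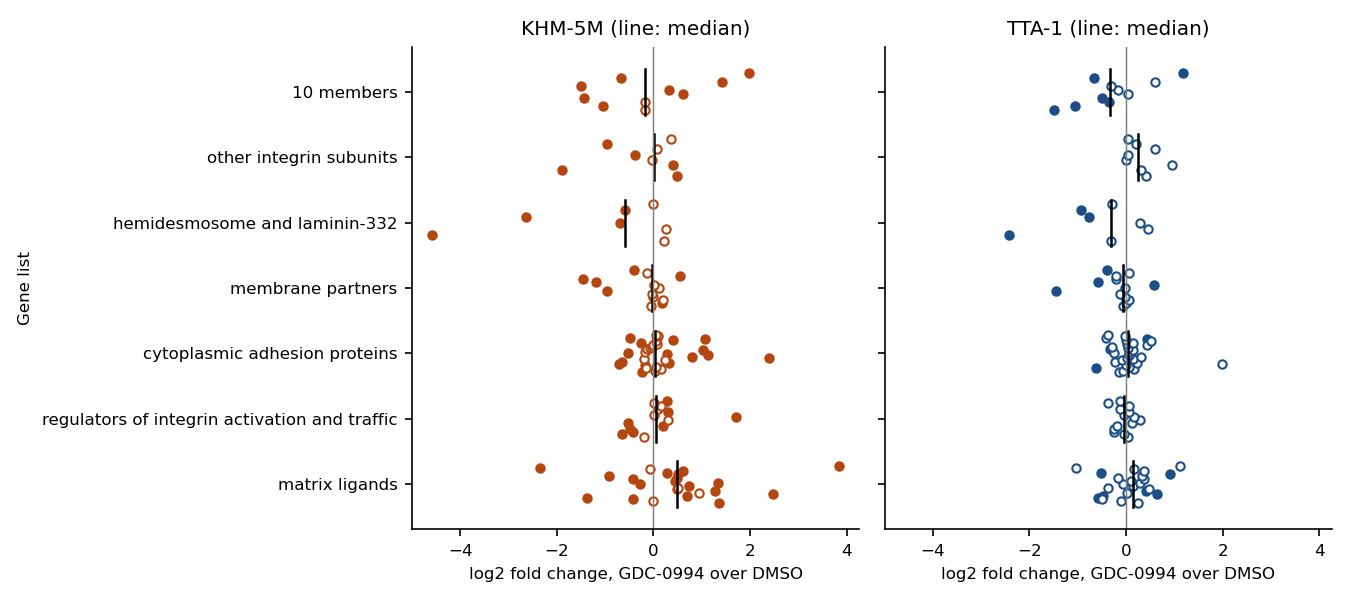
Log2 fold change under GDC-0994 of each gene of the integrin and adhesion lists in KHM-5M (left) and TTA-1 (right); filled points have an adjusted p below 0.05, and vertical lines are list medians. The 10 integrin subunits spread to both sides in KHM-5M, and the hemidesmosome and laminin-332 genes that were called all lie below 0.

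For each integrin gene, the protein-coding genes with the most similar pattern over the 12 libraries were found among those averaging 10 CPM or more (9373 for most of the 10), by the root mean square difference of centred log2(CPM + 1), which uses all groups and draws on the same libraries. ITGAV lay closest to FRS2 (0.067 per library) and ZBTB44 (0.079), and ITGA5 to FAM3A (0.070) and UBXN1 (0.073). ITGB1 lay closest to EIF3H (0.075) and MSRB3 (0.079), and ITGA6 to NAV2 (0.11) and SMAGP (0.12). ITGB5 lay closest to ETS1 (0.14) and HPCAL1 (0.15), and ITGA3 to TOR4A (0.15) and PDGFA (0.18). The nearest genes were TGFBR2 (0.17) and CLIC1 (0.18) for ITGB3 and EPHX1 (0.17) and NDST1 (0.21) for ITGB4. ITGA2, with TSPAN5 (0.38) and MAP2K3 (0.38), and ITGB8, with CAVIN2 (0.36) and SSC5D (0.36), had no gene as close as the nearest of the other 8. The added 1 compresses low levels, such as those of ITGB8 and ITGB3 in TTA-1. The log2 line difference in DMSO was 10.0 for SSC5D and 3.94 for CAVIN2, against 4.20 for ITGB8. It was 2.01 for TGFBR2 and 1.84 for CLIC1, against 2.90 for ITGB3.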

How the data were processed

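Polyadenylated RNA of 12 samples was sequenced. Per the labels' protocols, mRNA was selected on poly-T beads and converted to cDNA with random hexamers, and no strand-marking step is described. Tools given in the submitters' processing notes, without their roles, are featureCounts 1.5.0-p3, HISAT2 2.0.5 and CASAVA, and the build is GRCh38. The deposited count table holds whole, unnormalized counts per gene. The deposited FPKM table holds values that the authors scaled by gene length and library size. Tested on the values, each FPKM of a gene with 100 counts or more equalled count over length over 1 library size of 0.975 to 1.08 times the total. All IDs matched GENCODE 29 in position and exon length.

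Low counts were removed with filterByExpr (a minimum of 10, and 15 in total), libraries were normalized by TMM, and models were fitted in edgeR 4.0.16 (R 4.3.3), glmQLFit and glmQLFTest, in 1 model of 4 group means with 8 residual degrees of freedom. The Benjamini-Hochberg adjustment ran over 16218 genes, and an adjusted p below 0.05 was the threshold for calling a change. The standard error (SE) is the log2 fold change divided by the root of F. The procedure was tested on simulated data, where falls of genes with a mean count under 50 were often missed. The simulation gave all genes a single fixed spread and changed far fewer genes than were called in KHM-5M. Its pass mark was revised after those missed falls were seen.

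The 10 genes, lists and tests were chosen with earlier results of these data known. All 10 genes are named, with at most 2 risen and 2 fallen genes of each list by smallest p, and the 2 most similar genes of each integrin. FN1, DST, CD151 and ITGAE were named outside this rule, after their values were seen. A gene that this rule takes is not reported here. The lists held other integrin subunits, cytoplasmic adhesion proteins, regulators of integrin activation and traffic, hemidesmosome and laminin-332 genes, membrane partners, matrix ligands and ERK output genes. Alternatives were other scalings (DESeq2 size factors, upper quartile, library totals), the DESeq2 1.42.0 Wald test, no filter, a stricter filter (a mean count of 50, and 1 CPM in 3 libraries), limma 3.58.1 on log2(FPKM + 1) or log2(FPKM + 0.1), a replicate block, only the groups compared, each library left out, and, added after seeing the data, removal of length and GC trends. The labels give the 3 KHM-5M GDC-0994 samples 1 shared column name, and their columns were matched by number to the titles.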

Additional observations from a re-analysis of the deposited data

Results flagged for a closer look

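The effect of GDC-0994 differed between the lines for 6 of the 10 genes, by edgeR's test of the difference itself (KHM-5M minus TTA-1, Benjamini-Hochberg adjusted over all genes tested). ITGA2 differed by 1.32 on the log2 scale, having fallen in all 3 treated libraries of TTA-1 and overlapped in KHM-5M. ITGA6 differed by -0.94, being lower in all treated libraries of both lines. ITGAV differed by 0.57 and ITGB1 by 0.49, with all 3 treated KHM-5M libraries above the controls of that line. ITGB4 differed by 0.83 and ITGB8 by 0.80, with treated libraries above the controls in both lines. Of all genes tested, 27.9% differed between the lines in this way.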

How the results depend on the processing

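Over the alternatives, 7 to 10 of the 10 integrin genes were called for GDC-0994 in KHM-5M (8 to 9 when 1 library was left out) and 4 to 8 in TTA-1 (5 to 6). The ranges were 5 to 7 (4 to 6) for the difference of the effects, 6 to 10 (7 in each) between the lines in DMSO and 7 to 8 (7 to 8) under GDC-0994. Over these fits, 24.1% to 58.6% of all genes tested were called in KHM-5M and 1.05% to 15.7% in TTA-1. The share was 14.2% to 36.5% for the difference of the effects. Between the lines it was 39.5% to 81.2% in DMSO and 43.9% to 83.8% under GDC-0994. Each lowest share came from a fit without a filter. Removing length and GC trends, chosen after seeing the data, changed the sign of 3 line differences under GDC-0994. ITGA2, not called before, was called at 0.45 (edgeR adjusted p = 0.00146). ITGA6 at 0.082 (edgeR adjusted p = 0.194) and ITGB4 at -0.21 (0.231) lost their calls. ITGB5 was newly called at -0.38 without a change of sign (edgeR adjusted p = 2.89e-06). The cause was not tested. No other alternative reversed a called value. Values that were not called changed sign near 0 in 13 fits each for ITGA2 (up to 0.17) and ITGB5 (up to 0.15) between the lines under GDC-0994, in 11 for ITGB5 in DMSO (up to 0.080), and in 1 to 3 for 6 others. On log2(FPKM + 1), ITGB4 in KHM-5M changed by 0.66 and ITGB3 by -0.68, since the pseudocount compresses low levels. The stricter filter removed ITGB3. With the replicate number as a block, 8, 5, 6, 7 and 8 integrin genes were called in the 5 comparisons. The shares of all genes tested were 48.4%, 3.26%, 26.1%, 76.1% and 79.8%. ITGA5 in TTA-1 was the 1 call of the 10 genes that the block ended. Same-numbered deviations correlated across genes at 0.0080 to 0.019 in KHM-5M and -0.045 to 0.054 in TTA-1. Deviations of different numbers correlated at -0.029 to 0.020 in KHM-5M and -0.11 to 0.12 in TTA-1. No pairing by number was seen in these values, and whether same-numbered libraries shared a day or culture was not tested. Of all genes tested, 556 were called in TTA-1, against 915 by DESeq2, 1206 without a filter, 991 with trends removed, 341 by limma on log2(FPKM + 1) without a filter, 206 in a model of the TTA-1 libraries alone, and 259 to 2620 when 1 library was left out. Counts of 9 to 35 per library limit ITGB3 in TTA-1 and ITGB8 in TTA-1 DMSO. Shares of ITGB1, ITGB3, ITGB5 and ITGB8 in their own sum, taken from counts instead of FPKM, moved by more than 1 SD in 12 of 16 cases. This set includes ITGB1 and differs from the sets whose shares are given above.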
